A study of Saccharomyces cerevisiae with 6 samples.

Results

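The tRNA pool of rtf1∆ yeast was compared with that of wild type yeast in 2 libraries of each strain, 4 of the 6 libraries of the series, over all 70 tRNA sequences that were counted in each library. The rtf1∆ cells were strain DAS549, which carries HIS3 in place of RTF1, and the wild type (WT) cells were strain DAS217. Both were Saccharomyces cerevisiae cells taken in log phase from YEP with 2% dextrose at 30 °C, at an A600 of 0.6 to 0.8. In tRNA-HySeq, tRNA is purified by size on a gel, cut by mild alkaline hydrolysis, and the fragments of 19 to 35 nt are cloned and sequenced. DAS217 is not in the strain list of the study, so a difference in strain background cannot be told apart from the deletion. Nothing in the labels says that the 2 libraries of a strain came from separate cultures, and p-values then measure only the spread between these libraries. The RTF1 transcript is not among the counted sequences, so the deletion itself was not checked in the counts.

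Rtf1 is a subunit of the Paf1 complex, which travels with RNA polymerase II and promotes methylation and ubiquitylation of histones over transcribed genes. tRNA genes are read by RNA polymerase III, and in yeast most anticodons are served by more than one gene, with the genes scattered over the chromosomes. tRNAs that carry the same amino acid but differ in anticodon are called isoacceptors, and the balance between them sets which synonymous codons are read by an exactly matching anticodon and which by wobble at the anticodon's first base, position 34. A tRNA with C at position 34 reads codons ending in G, whereas U34 can also read codons ending in A.

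The files hold 70 sequences of 43 anticodon types, of which 42 belong to 20 amino acids. The remaining type, Und(NNN), has no assigned anticodon and had a reference length of 100 nt. The reference lengths and, except for Und(NNN), the amino acids and anticodons of the 70 sequences matched the 70 unique sequences of the 275 nuclear tRNA genes of the R64 reference, introns included and without the CCA end. For 33 sequences the match was to a single gene sequence, and 37 share label and length with another. The libraries held 519302 to 1435676 reads that aligned to a tRNA. Every sequence had at least 46 reads in every library. The library names place WT replicate 1 in set 1 and the other 3 libraries in set 2. All replicates differed by more than sampling noise and were counted separately, and the WT replicates lay further apart than the rtf1∆ replicates, at a chi-square divided by its degrees of freedom of 162 in rtf1∆ and 1053 in WT cells. Levels are given as CPM, reads scaled to a common library size with TMM, a factor that sets the typical tRNA equal between libraries. Each is relative to the rest of its library, so fewer molecules of one tRNA and more of all others cannot be told apart.

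The mature sequences of the tRNAs on which the results turn are shown with the anticodon in capitals, as DNA letters of the R64 reference from RefSeq, with introns removed. They show how far isoacceptors of an amino acid differ, and thus whether fragments of one can be mistaken for another.
tRNA-Glu(CUC): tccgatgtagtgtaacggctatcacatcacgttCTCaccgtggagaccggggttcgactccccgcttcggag
tRNA-Glu(UUC), 13 genes: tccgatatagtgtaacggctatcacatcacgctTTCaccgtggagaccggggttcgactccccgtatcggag
tRNA-Val(AAC), 13 genes: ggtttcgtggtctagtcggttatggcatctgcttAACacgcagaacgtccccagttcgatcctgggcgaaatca
tRNA-Val(AAC), 1 gene: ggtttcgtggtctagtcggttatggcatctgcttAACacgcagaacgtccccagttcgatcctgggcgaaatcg
tRNA-Ala(AGC): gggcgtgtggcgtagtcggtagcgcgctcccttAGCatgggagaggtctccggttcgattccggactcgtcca
tRNA-Ala(UGC): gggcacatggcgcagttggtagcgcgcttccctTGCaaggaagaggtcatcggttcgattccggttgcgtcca
tRNA-Leu(GAG): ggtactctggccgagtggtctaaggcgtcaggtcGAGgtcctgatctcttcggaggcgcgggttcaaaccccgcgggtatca
tRNA-Lys(CUU): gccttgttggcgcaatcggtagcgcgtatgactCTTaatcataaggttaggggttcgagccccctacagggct
tRNA-Lys(UUU): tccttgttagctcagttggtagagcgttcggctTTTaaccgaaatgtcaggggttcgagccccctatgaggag
tRNA-Pro(AGG): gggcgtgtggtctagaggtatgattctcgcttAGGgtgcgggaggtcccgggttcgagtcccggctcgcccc
tRNA-Pro(UGG), 9 genes: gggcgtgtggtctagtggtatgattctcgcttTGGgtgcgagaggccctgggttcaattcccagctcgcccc
tRNA-Gly(UCC): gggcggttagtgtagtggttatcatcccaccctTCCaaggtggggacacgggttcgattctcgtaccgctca
elongator tRNA-Met(CAU): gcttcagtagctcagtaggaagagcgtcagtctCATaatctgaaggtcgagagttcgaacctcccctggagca
The versions of tRNA-Val(AAC) differ by A74G, counted from 1 at the 5′ end with the 13-gene version first, and their reads cannot be separated. tRNA-Glu(CUC) differs from the 13-gene tRNA-Glu(UUC) at 5 positions, tRNA-Pro(AGG) from the 9-gene tRNA-Pro(UGG) at 8, tRNA-Ala(AGC) from tRNA-Ala(UGC) at 14, and tRNA-Lys(CUU) from tRNA-Lys(UUU) at 20. tRNA-Leu(GAG) has a single gene, at chrVII:700675-700756 (plus strand). tRNA-Glu(CUC) has 2 genes, at chrIV:1017207-1017278 (minus strand) and chrIX:197592-197663 (plus strand). tRNA-Gly(UCC) has 3 genes, SUF4 at chrVII:779616-779687 (plus strand), SUF6 at chrXIV:96241-96312 (minus strand) and SUF1 at chrXV:110962-111033 (minus strand). tRNA-Pro(AGG) has 2 genes, SUF2 at chrIII:123577-123648 (minus strand) and SUF10 at chrXIV:631846-631917 (minus strand). None of these genes has an intron. The other sequences were read from chrII:645167-645238 (plus strand), chrV:438700-438773 (plus strand), chrXV:663812-663885 (minus strand), chrIV:410379-410451 (plus strand), chrI:166267-166339 (plus strand), chrIII:151284-151356 (minus strand), chrIV:359577-359672 (plus strand), chrI:139152-139254 (plus strand) and chrIV:1175829-1175901 (plus strand). The tRNA-Lys(UUU) and tRNA-Pro(UGG) genes have an intron, which was removed from the sequences shown, while the counted references kept it.

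Summed by amino acid, the tRNAs for glutamate and valine fell and those for alanine rose in rtf1∆ cells. Glutamate tRNAs had 24501 and 26697 CPM in rtf1∆ libraries, against 49830 and 43988 CPM in WT libraries. The libraries of the strains did not overlap, and the WT level was 1.83-fold that of rtf1∆ cells (log2 fold change of rtf1∆ over WT -0.87, standard error (SE) 0.24, adjusted p = 0.0159 by edgeR's quasi-likelihood test with Benjamini-Hochberg adjustment over 20 amino acids). Valine tRNAs had 21070 and 19756 CPM in rtf1∆ libraries and 33959 and 37623 CPM in WT libraries. This was a log2 fold change of -0.81 (SE 0.24, adjusted p = 0.0159 by edgeR). The valine totals of the WT replicates were close, but their parts were not. tRNA-Val(UAC) had 10199 and 8294 CPM in rtf1∆ libraries and 9899 and 24280 CPM in WT libraries, and tRNA-Val(AAC) 7232 and 7000 CPM in rtf1∆ libraries and 19116 and 9580 CPM in WT libraries. tRNA-Val(UAC) and tRNA-Val(CAC) overlapped between the strains. Alanine tRNAs had 52493 and 41521 CPM in rtf1∆ libraries and 27262 and 30473 CPM in WT libraries. They were 1.63-fold higher in rtf1∆ cells, a log2 fold change of 0.70 (SE 0.25, adjusted p = 0.0444 by edgeR).

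These were 3 of the 20 amino acids (15.0%), 2 lower (10%) and 1 higher (5.0%), and 5 had an unadjusted p under 0.05 (25.0%). In CPM, the libraries of the strains did not overlap for 8 of 20 (40.0%), with 5 higher (25.0%) and 3 lower (15.0%) in rtf1∆ cells. By share of aligned reads, alanine, arginine and phenylalanine of these overlapped. Without WT replicate 1, which leaves only libraries of set 2 and a single WT library, the log2 fold changes were -0.76 for glutamate, -0.86 for valine and 0.64 for alanine. The spread then came from the rtf1∆ replicates alone, which lay closer together than the WT replicates. With rtf1∆ replicate 1 or rtf1∆ replicate 2 left out no amino acid passed, and alanine did not pass under RLE, total-count or upper-quartile scaling or in DESeq2, where its adjusted p was 0.0689, 0.502, 0.0551 and 0.106. Nor did it pass without WT replicate 2 (adjusted p = 0.0988 by edgeR), and glutamate had an adjusted p of 0.0551 under upper-quartile scaling.

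**Figure D1:**
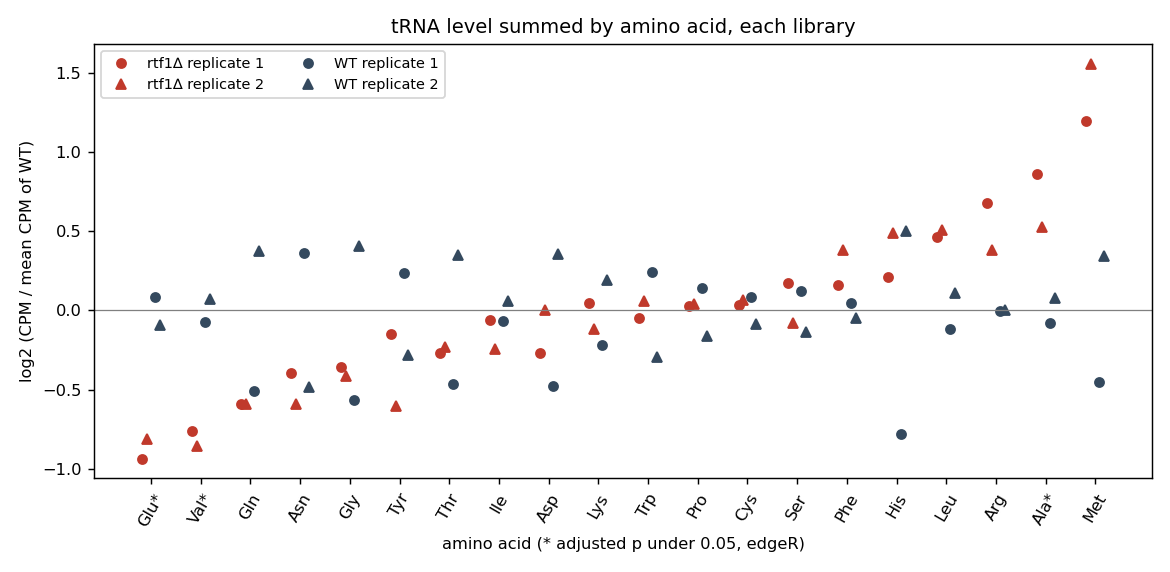
Levels summed by amino acid in each library, as log2 of CPM over the mean CPM of the 2 WT libraries (y axis), with amino acids ordered by log2 fold change (x axis). Red marks rtf1∆ and dark blue WT libraries, with circles for replicate 1 and triangles for replicate 2. Both rtf1∆ libraries lie below both WT libraries for glutamate, valine and glutamine and above them for phenylalanine, leucine, arginine, alanine and methionine.

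Methionine tRNAs showed the greatest difference of the 20 amino acids, with the largest SE. They had 357779 and 459132 CPM in rtf1∆ libraries, against 113765 and 197785 CPM in WT libraries. The log2 fold change was 1.39 with an SE of 0.81 (adjusted p = 0.263 by edgeR), while DESeq2 gave an adjusted p of 0.00111 and total-count scaling in edgeR one of 0.000918. As a share of all aligned reads, methionine tRNAs took 36.7% ± 3.94 in rtf1∆ and 16.7% ± 2.41 in WT cells (SD, n = 2 each), a difference of 20.04 percentage points. Almost all of these reads were elongator tRNA-Met(CAU), which places methionine inside proteins, with 97.8% and 98.8% of them in rtf1∆ and 95.9% and 98.0% in WT libraries. A single tRNA thus took 33.2% and 39.0% of the aligned reads of the rtf1∆ libraries.

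Because shares sum to 100%, a tRNA that takes this much of a library lowers the share of the others. Without a composition factor (total counts only), the median log2 fold change of the 70 sequences was -0.38, compared with -0.06 after TMM scaling, a shift of -0.31. The changes above are relative to the median after TMM scaling. With elongator tRNA-Met(CAU) removed from the table, alanine tRNAs took 7.45% and 5.86% of the remaining reads in rtf1∆ libraries and 4.19% and 3.46% in WT libraries. Glutamate tRNAs took 3.48% and 3.77% in rtf1∆ and 7.66% and 4.99% in WT libraries, and valine tRNAs 2.99% and 2.79% in rtf1∆ and 5.22% and 4.27% in WT libraries. On this scale too the libraries did not overlap for these amino acids. Over all aligned reads the alanine share was 4.98% and 3.57% in rtf1∆ and 3.59% and 2.83% in WT libraries, where the strains overlapped. Refitted without this tRNA, edgeR gave adjusted p-values of 0.0145 for glutamate, 0.0145 for valine and 0.0416 for alanine.

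In CPM, arginine and leucine tRNAs lay above WT in both rtf1∆ libraries without passing edgeR's test. Arginine tRNAs had 31166 and 25343 CPM in rtf1∆ libraries and 19388 and 19469 CPM in WT libraries (log2 fold change 0.54, SE 0.24, adjusted p = 0.124 by edgeR), and passed by limma-voom (adjusted p = 0.0226). Leucine tRNAs had 27302 and 28157 CPM in rtf1∆ libraries and 18248 and 21313 CPM in WT libraries (0.49, SE 0.24, adjusted p = 0.167). For 12 of the 20 amino acids the WT replicates stood further apart than the strains did. Among these were glutamine, asparagine, glycine, threonine, aspartate, histidine and tyrosine (log2 fold change -0.36, SE 0.31, for tyrosine). Histidine tRNAs had 22399 and 27104 CPM in rtf1∆ libraries, within the range of 11235 to 27396 CPM spanned by the WT libraries. The tRNAs for tryptophan, proline, cysteine, serine and lysine had log2 fold changes between -0.03 and 0.05, with SEs from 0.24 to 0.34.

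Among the 43 anticodon types, 21 had a positive and 22 a negative log2 fold change, between -1.32 and 1.41 with a median of -0.08. None passed an adjusted p of 0.05 by edgeR (0.0%), 9 had an unadjusted p under 0.05 (20.9%), and DESeq2 gave 2 calls, tRNA-Glu(CUC) lower and elongator tRNA-Met(CAU) higher. In CPM, the libraries of the strains did not overlap for 24 types (55.8%), of which 13 were higher (30.2%) and 11 lower (25.6%) in rtf1∆ cells. By share of aligned reads, the types lower in CPM stayed apart. Of those higher in CPM, tRNA-Ala(AGC), tRNA-Leu(CAA), tRNA-Lys(CUU), tRNA-Pro(AGG) and elongator tRNA-Met(CAU) stayed apart, and the others overlapped. The change was at least 2-fold in 4 types (9.30%). The WT replicates differed from each other by a median of 0.43 on the log2 scale, as much as the strains did (0.49), while the rtf1∆ replicates differed by 0.20.

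**Figure D2:**
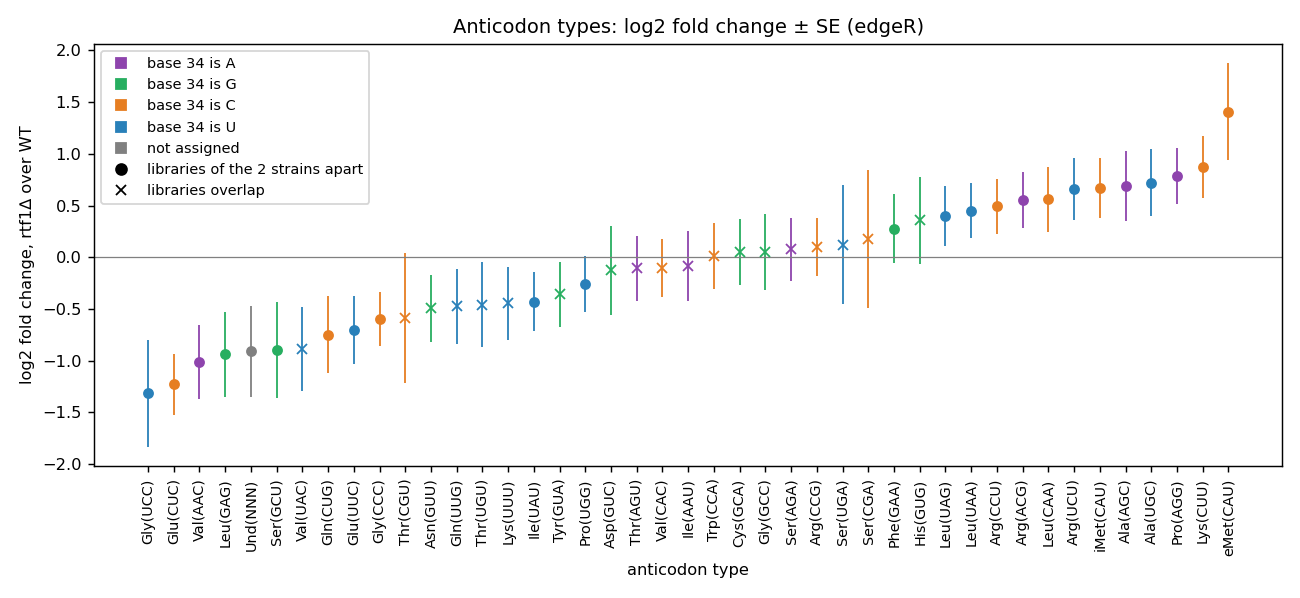
Log2 fold change of rtf1∆ over WT for the 43 anticodon types in order (points, y axis), with the standard error (SE) from edgeR (bars), coloured by the base at position 34. Filled circles mark the 24 types whose rtf1∆ and WT libraries do not overlap in CPM and crosses the 19 that overlap. The types run from -1.32 for Gly(UCC) to 1.41 for elongator Met(CAU).

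The lowest type with close WT replicates was tRNA-Glu(CUC), which reads GAG codons. It had 7107 and 7480 CPM in rtf1∆ libraries and 15581 and 18630 CPM in WT libraries. Some of its fragments also fit tRNA-Glu(UUC), and the part of these in its level was not tested. The groups stood well apart, with a WT level 2.35-fold that of rtf1∆ cells (log2 fold change -1.23, SE 0.29, adjusted p = 0.0738 over the 43 types by edgeR). Fitted among the 70 single sequences, its adjusted p was 0.0403 by edgeR. The SE was larger there, at 0.37, and the unadjusted p by edgeR was 0.0012, against 0.0017 among the types. The adjusted p also depends on the other rows, and versions of tRNA-Val(AAC) with inseparable reads share this value. As a single sequence tRNA-Glu(CUC) did not pass under total-count scaling (adjusted p = 0.0826), under upper-quartile scaling (0.184) or by limma-voom (0.0792). Dropping any single library gave -1.33 to -1.10.

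The other types with the most negative values among those without overlap were tRNA-Gly(UCC), tRNA-Val(AAC), tRNA-Leu(GAG) and Und(NNN). In each of them 1 WT library set most of the difference. tRNA-Gly(UCC) had 18929 and 16448 CPM in rtf1∆ libraries and 19552 and 68591 CPM in WT libraries. The rtf1∆ libraries were thus close to WT replicate 1, and its log2 fold change of -1.32 (SE 0.51) was -0.14 without WT replicate 2. tRNA-Val(AAC) had 7232 and 7000 CPM in rtf1∆ libraries and 19116 and 9580 CPM in WT libraries. Here WT replicate 1 was the high library, and the log2 fold change of -1.01 (SE 0.36) was -0.41 without it. Und(NNN) had 334.9 and 343.8 CPM in rtf1∆ libraries and 410.9 and 862.1 CPM in WT libraries (log2 fold change -0.91, SE 0.44). Its counts over the 4 libraries were in proportion to those of tRNA-Ser(GCU) within sampling noise, so their reads may not be separable and they may not be independent types. Among the 70 single sequences, 4 passed an adjusted p of 0.05 by edgeR (5.71%), and 39 had libraries that did not overlap in CPM (55.7%). The 4 were all lower: tRNA-Gly(UCC), tRNA-Glu(CUC) and both versions of tRNA-Val(AAC), each at an adjusted p of 0.0403. The reads of the tRNA-Val(AAC) versions cannot be separated, so these are not independent rows. With near-identical copies summed, tRNA-Glu(CUC) and tRNA-Gly(UCC) still passed, and tRNA-Val(AAC) did not. tRNA-Gly(UCC) lost this call without WT replicate 2, where the adjusted p was 0.619 by edgeR, and the tRNA-Val(AAC) versions lost it without WT replicate 1 (adjusted p = 0.19 and 0.22). No sequence passed without rtf1∆ replicate 1 or rtf1∆ replicate 2.

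The highest types without overlap were elongator tRNA-Met(CAU), tRNA-Lys(CUU), tRNA-Pro(AGG) and both alanine tRNAs. Elongator tRNA-Met(CAU) had 349723 and 453422 CPM in rtf1∆ libraries and 109092 and 193807 CPM in WT libraries (log2 fold change 1.41, SE 0.47, adjusted p = 0.148 by edgeR). tRNA-Lys(CUU), which reads AAG codons, had 17867 and 17476 CPM in rtf1∆ libraries and 10957 and 8333 CPM in WT libraries. Its log2 fold change was 0.87 (SE 0.30, adjusted p = 0.148), and dropping any single library gave 0.69 to 1.11. tRNA-Pro(AGG) had 3257 and 2877 CPM in rtf1∆ libraries and 1857 and 1701 CPM in WT libraries (0.79, SE 0.28, adjusted p = 0.148 by edgeR). The WT replicates were close for this tRNA, and its value moved least of these types, from 0.72 to 0.87. tRNA-Ala(AGC) had 29032 and 24806 CPM in rtf1∆ libraries and 13389 and 19977 CPM in WT libraries, and tRNA-Ala(UGC) had 23461 and 16715 CPM in rtf1∆ libraries and 13873 and 10496 CPM in WT libraries. The alanine tRNAs had log2 fold changes of 0.69 and 0.72 (SEs of 0.34 and 0.33, adjusted p = 0.184 each by edgeR), with both types above WT in both rtf1∆ libraries. By share of aligned reads, tRNA-Ala(UGC) overlapped between the strains.

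**Figure D3:**
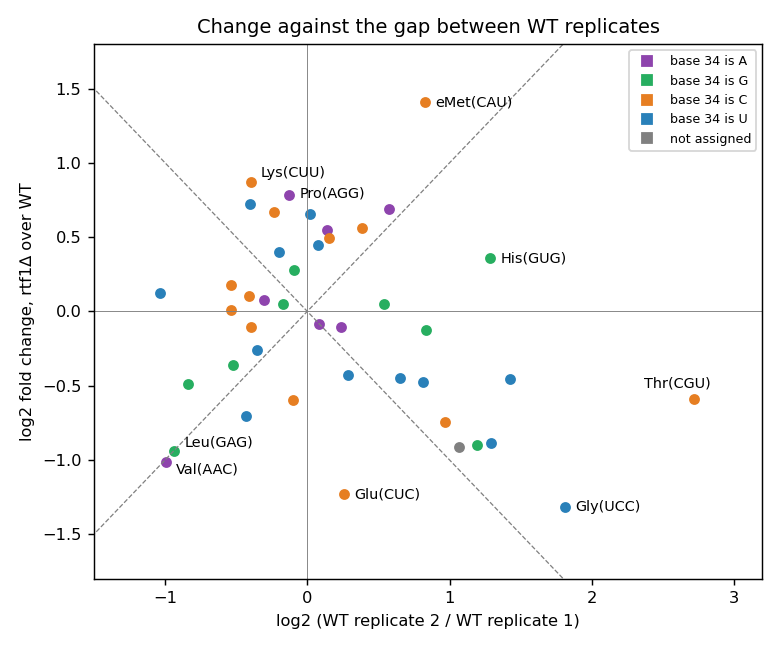
Log2 fold change of rtf1∆ over WT (y axis) against the log2 ratio of WT replicate 2 over WT replicate 1 (x axis) for the 43 anticodon types, coloured by the base at position 34. Dashed lines mark where both are equal in size. In 24 types the WT replicates differ by more than the strains do; Thr(CGU) has the widest WT gap, 2.72 on the log2 scale, whereas Glu(CUC), Pro(AGG) and Lys(CUU) lie at small gaps.

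Of the tRNAs that the study probed on northern blots, 4 of 5 types lay above WT in both rtf1∆ libraries and 1, tRNA-Glu(UUC), below, beside 30.2% above and 25.6% below among all 43 types. None of them passed the test. These positions are in CPM. By share of aligned reads, initiator tRNA-Met(CAU), tRNA-Arg(UCU) and tRNA-Phe(GAA) overlapped between the strains, while tRNA-Leu(CAA) stayed above and tRNA-Glu(UUC) below. Initiator tRNA-Met(CAU), which starts translation, had 8057 and 5710 CPM in rtf1∆ libraries and 4673 and 3978 CPM in WT libraries (log2 fold change 0.67, SE 0.29, adjusted p = 0.184 by edgeR). tRNA-Arg(UCU), the most read arginine tRNA, had 16384 and 12025 CPM in rtf1∆ libraries and 8950 and 9052 CPM in WT libraries (0.66, SE 0.30). tRNA-Leu(CAA) had 18954 and 21184 CPM in rtf1∆ libraries and 11810 and 15442 CPM in WT libraries (0.56, SE 0.31). tRNA-Phe(GAA) had 43060 and 50145 CPM in rtf1∆ libraries and 39705 and 37230 CPM in WT libraries. Its log2 fold change of 0.28 (SE 0.34) was -0.05 under total-count scaling. tRNA-Glu(UUC) had 17394 and 19216 CPM in rtf1∆ libraries and 34250 and 25358 CPM in WT libraries (-0.70, SE 0.33, adjusted p = 0.184 by edgeR).

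The isoacceptors of an amino acid did not always have fold changes of the same sign. Among the 13 amino acids read by several types, all types had a positive log2 fold change in 3 (alanine, arginine and methionine), all had a negative one in 5 (glutamine, glutamate, isoleucine, threonine and valine), and the signs were split in 5 (glycine, leucine, lysine, proline and serine). Under total-count scaling arginine became split, through tRNA-Arg(CCG) at -0.24 against 0.10 with TMM, and all types of glycine and serine were negative. The types lay furthest apart in leucine, by 1.498 on the log2 scale, and closest in alanine, by 0.03.

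Whether the share of a type among the reads of its amino acid changed was tested for the 35 types of these 13 amino acids, with edgeR's test of differential usage within the amino acid. A single type, tRNA-Leu(GAG), passed (2.86%), and 3 had an unadjusted p under 0.05 (8.57%). The shares of the strains did not overlap for 17 of 35 types (48.6%), 9 higher (25.7%) and 8 lower (22.9%) in rtf1∆ cells. These are not independent, because a rise in the share of any type lowers the others. For glutamine, glutamate, isoleucine, lysine and proline, both types of the pair are counted, with opposite signs. tRNA-Leu(GAG), the least read leucine tRNA, reads CUC and CUU codons. It took 1.53% (95% Wilson interval 1.37 to 1.71%) and 1.39% (1.21 to 1.595%) of leucine tRNA reads in rtf1∆ libraries, against 5.59% (5.196 to 6.002%) and 2.50% (2.33 to 2.69%) in WT libraries. Its share fell, with a log2 fold change relative to all leucine tRNAs together of -1.43 (adjusted p = 0.0366 by edgeR over 35 types). The intervals cover counting error only, because PCR copies of a fragment are not separate molecules.

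In CPM, tRNA-Leu(GAG) had 416.9 and 391.2 in rtf1∆ libraries and 1019 and 533.3 in WT libraries, while the other 3 leucine types lay above WT in both rtf1∆ libraries. tRNA-Leu(UAA) had 5209 and 4426 CPM in rtf1∆ libraries and 3439 and 3616 CPM in WT libraries (log2 fold change 0.45, SE 0.27). tRNA-Leu(UAG) had 2722 and 2156 CPM in rtf1∆ libraries and 1980 and 1721 CPM in WT libraries (0.40, SE 0.29). The shares of these and of tRNA-Leu(CAA) within leucine overlapped between the strains. The counted tRNA-Leu(CAA) and tRNA-Leu(UAG) references contain introns, and those of tRNA-Leu(GAG) and tRNA-Leu(UAA) do not. The part of this in the leucine balance was not tested. The call for tRNA-Leu(GAG) was not made under total-count scaling (adjusted p = 0.0894), by limma-voom (0.171) or without rtf1∆ replicate 1 or 2. Its relative log2 fold change was -0.78 without WT replicate 1 and -1.94 without WT replicate 2.

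**Figure D4:**
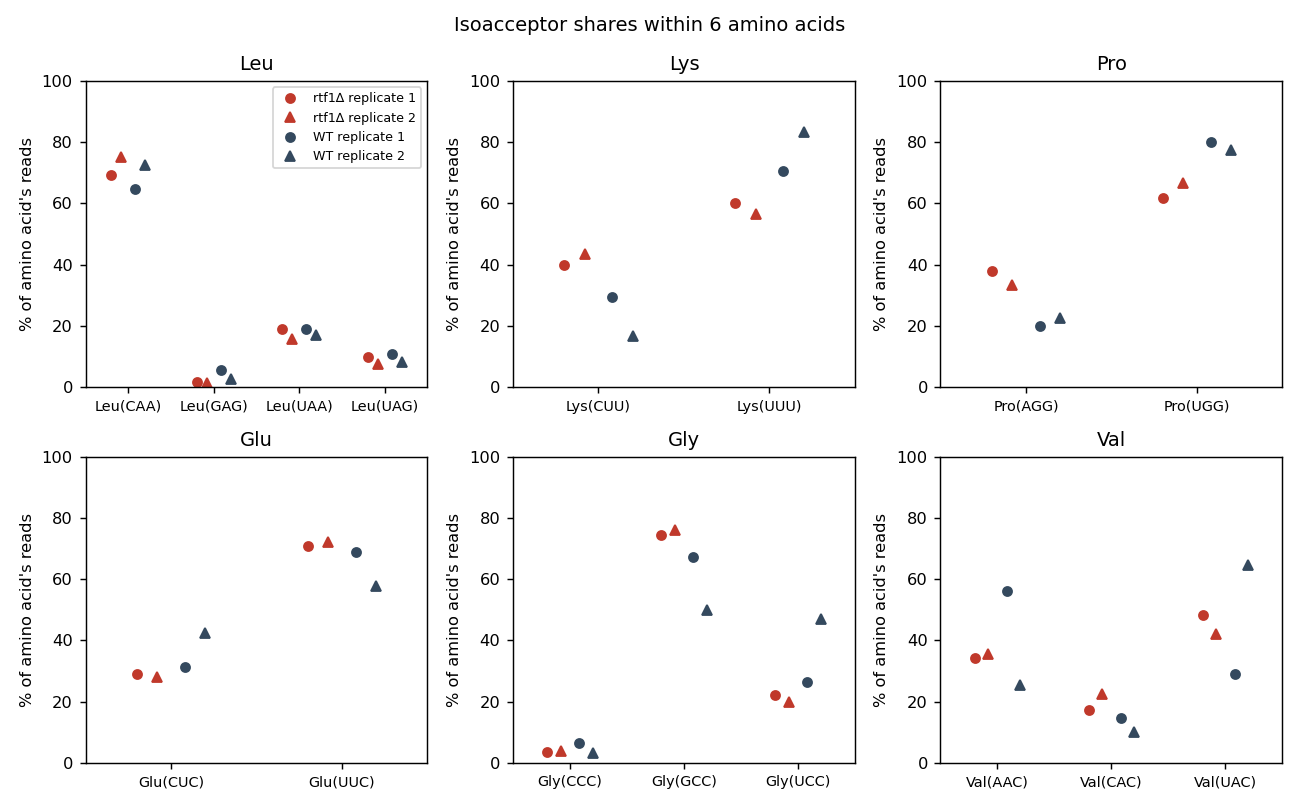
Share of each isoacceptor among the reads of its amino acid, in percent (y axis), for 6 amino acids, with rtf1∆ libraries (red) left of WT libraries (dark blue) and circles and triangles for replicates 1 and 2. Lys(CUU) and Pro(AGG) lie higher in both rtf1∆ libraries and Leu(GAG), Glu(CUC) and Gly(UCC) lower, while the valine shares of the WT replicates are far apart.

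The greatest differences in percentage points without overlap were in lysine, glycine and proline, and none of these passed the test of usage after adjustment. tRNA-Lys(CUU) took 39.8% and 43.5% of lysine tRNA reads in rtf1∆ libraries and 29.4% and 16.8% in WT libraries (adjusted p = 0.478 by edgeR). The lysine total had a log2 fold change of -0.03 (SE 0.25). tRNA-Lys(UUU), the remainder, had 27039 and 22688 CPM in rtf1∆ libraries and 26355 and 41370 CPM in WT libraries (-0.45, SE 0.35). tRNA-Pro(AGG) took 38.1% and 33.3% of proline tRNA reads in rtf1∆ libraries and 19.99% and 22.6% in WT libraries (adjusted p = 0.478 by edgeR). tRNA-Pro(UGG) had 5294 and 5775 CPM in rtf1∆ libraries and 7432 and 5815 CPM in WT libraries (-0.26, SE 0.28), and the proline total too was close, at 0.03. The counted tRNA-Lys(UUU) and tRNA-Pro(UGG) references contain introns and those of their partners do not, and the part of this in the balance was not tested.

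For glycine, tRNA-Gly(GCC), the main glycine tRNA, took 74.4% and 76.2% of the reads in rtf1∆ libraries and 67.2% and 49.8% in WT libraries, at a nearly equal level (log2 fold change 0.05, SE 0.37). tRNA-Gly(UCC) took 22.0% and 19.9% in rtf1∆ and 26.2% and 47.1% in WT libraries (adjusted p = 0.478 by edgeR). The difference in glycine balance therefore followed the high tRNA-Gly(UCC) count of WT replicate 2. tRNA-Gly(CCC) had 3030 and 3238 CPM in rtf1∆ libraries and 4907 and 4574 CPM in WT libraries (log2 fold change -0.60, SE 0.26, adjusted p = 0.184 by edgeR), and its replicates were close in both strains. For serine, tRNA-Ser(AGA) took 96.7% and 96.3% of the reads in rtf1∆ and 96.1% and 93.3% in WT libraries. tRNA-Ser(GCU) had 285.7 and 363.5 CPM in rtf1∆ libraries and 367.0 and 838.2 CPM in WT libraries (-0.90, SE 0.47), with rtf1∆ replicate 2 close to WT replicate 1 and with reads that may be shared with Und(NNN). tRNA-Ser(UGA), at 252.9 and 140.3 CPM in rtf1∆ and 245.6 and 119.8 CPM in WT libraries, and tRNA-Ser(CGA), the least read tRNA of every library at 94.3 and 90.9 CPM in rtf1∆ and 98.0 and 67.4 CPM in WT libraries, overlapped between the strains.

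Boxes in which a C34 and a U34 tRNA carry the same amino acid were then compared by the ratio of their reads. In 9 such boxes the ratio was higher in both rtf1∆ libraries in 1 (lysine), lower in 2 (glutamine and glutamate) and overlapped in 6. The CUU to UUU ratio of lysine was 0.661 and 0.770 in rtf1∆ libraries and 0.416 and 0.201 in WT libraries. The CUC to UUC ratio of glutamate went the other way, with 0.409 and 0.389 in rtf1∆ libraries and 0.455 and 0.735 in WT libraries. In glutamine the CUG to UUG ratio was 0.672 and 0.712 in rtf1∆ libraries and 0.780 and 0.868 in WT libraries. No shift shared by the C34 tRNAs was therefore seen in these ratios. Some fragments fit both partners in glutamate. tRNA-Gln(CUG) first differs from the 7-gene tRNA-Gln(UUG) at position 34, so fragments from before it fit both of these too. The part of such reads in the ratios was not tested. Over all types, the median log2 fold change was 0.10 for the 13 types with C34, -0.43 for the 13 with U34, -0.13 for the 9 with G34 and 0.08 for the 7 with A34, beside -0.08 for all 43. At an unadjusted p under 0.05 were 5 of the C34 types, which went both ways, 1 of the U34, 1 of the G34 and 2 of the A34 types, beside 9 of all 43 (20.9%).

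By chemical class of the amino acid, the 3 types for acidic residues all had negative values (median -0.70), as did the 3 for amides (median -0.49), while 6 of the 7 for basic residues had positive values (median 0.49). The exception was tRNA-Lys(UUU). The 9 types for branched residues were mixed (median -0.10), with most leucine types positive and the valine types negative. The 9 types for small residues had a median of 0.08, the 3 for aromatic residues one of 0.01, the 3 for sulfur-containing residues one of 0.67 (all positive) and the 3 for threonine one of -0.46 (all negative), while the 2 proline types had opposite signs (median 0.26). With edgeR no single type of any class passed after adjustment. Under total-count scaling the median of all 43 types was -0.38. The medians were then -1.06 for acidic, -0.87 for amide, 0.19 for basic, -0.46 for branched, -0.25 for small, -0.35 for aromatic, 0.35 for sulfur-containing residues, -0.66 for threonine and -0.07 for proline.

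The 16 types encoded by 1 to 3 genes had a median log2 fold change of -0.51, with 7 below and 3 above WT in both rtf1∆ libraries. The 12 types with 4 to 9 genes had a median of 0.20 (5 above and none below), and the 14 types with 10 or more genes one of -0.02 (5 above and 3 below). Among all 43 types, 13 lay above (30.2%) and 11 below (25.6%), all by CPM. Types with few genes are also read less, so that Spearman's rho between gene number and WT level was 0.52 across the 42 types with an anticodon. Between gene number and log2 fold change rho was 0.19, and between GC content and log2 fold change 0.15. All points of these correlations share the same 4 libraries. The 10 types whose genes have an intron had a median of -0.13 and the 32 without -0.02.

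Several anticodon types are listed as more than 1 sequence. Of the 42 sequences in 15 such types, 18 had shares of their type that did not overlap between the strains. A higher share of any sequence lowers the others of its type, so the 18 are not separate shifts. Among them were sequences of tRNA-Leu(CAA) and tRNA-Pro(UGG) whose counts stayed in proportion to other copies of their type within sampling noise. tRNA-Asp(GUC), the most read type of both WT libraries, is encoded by 15 genes of 72 nt and 1 gene of 71 nt. The 71 nt sequence took 16.3% and 12.02% of the tRNA-Asp(GUC) reads in rtf1∆ libraries and 10.98% and 8.13% in WT libraries. Its level was 21075 and 18847 CPM in rtf1∆ libraries and 12330 and 16312 CPM in WT libraries (log2 fold change 0.48, SE 0.39), whereas the 72 nt sequence overlapped between the strains (-0.21, SE 0.47). The tRNA-Asp(GUC) sequences differ only near the 5′ end, so fragments from the rest fit both. The part of such reads in these shares and levels was not tested. tRNA-Arg(ACG) has 2 sequences of equal length. The sequence with more reads took 77.2% and 81.0% of the type in rtf1∆ libraries and 71.8% and 73.6% in WT libraries, and had a log2 fold change of 0.67 (SE 0.31), compared with 0.18 (SE 0.29) for the other. For both versions of tRNA-Val(AAC) the share stayed within 48.2 to 51.8% in every library.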

How the data were processed

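tRNA was measured by tRNA-HySeq. The authors clipped and trimmed reads on Galaxy, aligned them to a file of unique tRNA sequences and deposited raw IdxStats counts, not normalized. The processing notes name Bowtie and SAMtools. How reads fitting several sequences were placed is not given in the sources used here, nor is a genome build. Genes and sequences came from RefSeq's R64 reference, matched by amino acid, anticodon and length. The rtf1∆ replicate numbers follow the labels, which cross those of the library names.

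Counts were used singly and summed by anticodon type or amino acid, with scaling factors from the 70 rows. Tests were two-sided in edgeR 4.0.16 (R 4.3.3): TMM, quasi-likelihood, Benjamini-Hochberg at 0.05, over rows with at least 10 counts in at least 2 libraries, which removed none. Balance was tested with diffSpliceDGE. SEs are |log2 fold change| divided by the root of F. Alternatives were other scalings and filters, DESeq2 1.42.0, limma-voom (limma 3.58.1), a replicate block, summed copies and each library left out. The code was tested on simulated data. An exact permutation test of 2 against 2 libraries cannot go below 0.333 and was not used. A count of 3, the floor, is at most 0.000578% of a library's aligned reads.

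Named were all calls, the 5 greatest positive and negative log2 fold changes without overlap among sequences and types, all types of the 5 amino acids with the smallest p in the balance test, the tRNAs probed on northern blots, and the most and least read. Rules, lists and members were chosen with earlier results of these data known. tRNA-Arg(ACG), tRNA-Asp(GUC), the C34 to U34 ratios and amino acids that did not pass were described after their values were seen. The paf1∆ libraries were not used here.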

Additional observations from a re-analysis of the deposited data

Results flagged for a closer look

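The reads aligned to no tRNA sequence were not part of any comparison. They made up 94.36% and 93.92% of the reads of the rtf1∆ libraries, a mean of 94.14%, and 93.24% and 93.57% of the reads of the WT libraries. The share was higher in both rtf1∆ libraries than in both WT libraries. The part of these reads in the results was not tested.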

How the results depend on the processing

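The calls depended on the libraries and on the scaling. With each library left out in turn, 0 to 23 sequences, 0 to 13 anticodon types, 0 to 8 amino acids and 0 to 9 balances passed, compared with 4, 0, 3 and 1 in all libraries. Without rtf1∆ replicate 1 or rtf1∆ replicate 2 no call was made at any of these levels, and the most came without a WT replicate. The library left alone in its strain is then assumed to vary like the other strain's. Under total-count scaling 1 sequence, 4 anticodon types and 0 balances passed. Under upper-quartile scaling 0 sequences and 1 amino acid did, by DESeq2 2 sequences and 2 anticodon types, and by limma-voom 0 sequences, 0 balances and 4 amino acids, arginine besides those of edgeR. Summing near-identical copies left 2 sequences, tRNA-Glu(CUC) and tRNA-Gly(UCC), while tRNA-Val(AAC) no longer passed. With the replicate block 0 sequences (9 at an unadjusted p under 0.05), 0 anticodon types and 0 amino acids passed, while the balance of tRNA-Leu(GAG) passed. Deviations of same-numbered libraries correlated with r = 0.253 over 2 pairs, so the numbers were not taken to pair the libraries. Glutamate and valine passed under RLE and total-count scaling, by DESeq2 and by limma-voom, and kept a negative log2 fold change under every alternative run.

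The difference in the pool share of alanine tRNAs was 1.06 percentage points, and 2.83 once elongator tRNA-Met(CAU) was removed. Among the named tRNAs, signs turned only where the log2 fold change lay between -0.21 and 0.28. tRNA-Gly(GCC) was at -0.004 under RLE and -0.215 under total-count scaling (added after seeing the data), which also gave -0.049 for tRNA-Phe(GAA), -0.255 for tRNA-Ser(AGA), -0.164 for tRNA-Ser(CGA) and -0.248 for tRNA-Ser(UGA). With single libraries left out the log2 fold change ranged from -0.171 to 0.343 for tRNA-Gly(GCC), -0.066 to 0.256 for tRNA-Ser(AGA), -0.079 to 0.479 for tRNA-Ser(CGA) and -0.343 to 0.755 for tRNA-Ser(UGA). Relative to the amino acid it ranged from -0.825 to 0.245 for tRNA-Gly(CCC), -0.001 to 0.161 for tRNA-Leu(CAA), -0.183 to 0.097 for tRNA-Leu(UAA), -0.302 to 0.121 for tRNA-Leu(UAG), -0.007 to 0.271 for tRNA-Ser(CGA) and -0.296 to 0.547 for tRNA-Ser(UGA). Depth limits the least read type most, tRNA-Ser(CGA), which had 69 and 46 reads in rtf1∆ libraries.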
